A study of Mus musculus with 4 samples.

Results

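The clustered histone genes of the mouse were followed in ILC2s, group 2 innate lymphoid cells, sorted from bronchoalveolar lavage (BAL) fluid. A gene was a member when its symbol began with *Hist1h*, *Hist2h*, *Hist3h* or *Hist4h*, which held for 69 of the 24537 genes in the expression tables. Of these, 6 are named as linker histone genes (H1) and 63 as core histone genes, with 19 for H2A, 19 for H2B, 12 for H3 and 13 for H4. The core genes include *Hist1h2al* and *Hist3h2bb-ps*, which are listed with non-coding RefSeq records. The *Hist1* group on chromosome 13 supplied 55 members, *Hist2* on chromosome 3 supplied 10, *Hist3* on chromosome 11 supplied 3 and *Hist4* on chromosome 6 supplied 1.

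The libraries came from GATIR mice aged 8 to 16 weeks, which carry a YFP reporter in the endogenous *Gata3* gene. In the acute group (IL-33), IL-33, a cytokine released by damaged epithelium, was given 3 times at 0.5 µg. In the chronic group (HDM), 25 µg house dust mite extract was given 3 times a week for 5 weeks. Cells were taken 1 day after the last dose in both, and each group had 2 libraries. Per the labels, the IL-33 mice were *Gata3*-YFP/YFP and their cells CD25High, whereas the HDM mice were *Gata3*-YFP/WT and their cells CD25Low. The study's methods name only homozygous reporter mice and a Lineage−Sca-1+YFP+ sort, so treatment, reporter dose and CD25 class cannot be told apart here. Whether a group's libraries stem from different mice is not stated, and p-values therefore measure only the spread between libraries, which may be technical.

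Histone octamers of H2A, H2B, H3 and H4 wrap DNA into nucleosomes, and H1 binds the DNA that enters and leaves them. Most clustered histone genes are switched on in S phase, and their mRNA ends without a poly(A) tail in a short hairpin, the stem-loop, which the stem-loop binding protein SLBP holds. Some clustered genes also yield polyadenylated mRNA from a site farther downstream, a form known from cells that have stopped dividing. The libraries were made by Smart-seq2, which primes on poly(A), so mRNA that ends at the stem-loop is captured poorly and the values below reflect mostly polyadenylated forms.

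The stem-loop is shown for 7 of the members described below, because it marks where the tail-less mRNA ends. Each line gives the transcript strand 5′ to 3′ from the GENCODE transcript of mm10, with the stem-loop in capitals:
Hist1h1c: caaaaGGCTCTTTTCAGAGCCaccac
Hist1h1e: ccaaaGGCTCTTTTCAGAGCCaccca
Hist1h2ae: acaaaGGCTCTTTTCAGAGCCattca
Hist1h2ao: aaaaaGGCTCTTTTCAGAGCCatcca
Hist3h2a: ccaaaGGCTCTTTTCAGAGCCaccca
Hist1h4d: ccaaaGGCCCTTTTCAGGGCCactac
Hist2h4: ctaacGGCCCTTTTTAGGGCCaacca
These stretches lie at chr13:23739507-23739532 (plus strand), chr13:23621777-23621802 (minus), chr13:23570663-23570688 (minus), chr13:21810893-21810918 (plus), chr11:58955167-58955192 (plus), chr13:23581945-23581970 (plus) and chr3:96262934-96262959 (minus), in the order shown. The H1 and H2A genes of this set carried the same 16 nt, and both H4 genes carried a stem of other bases. Over all members, 46 annotated transcripts held the stem-loop in 8 sequences, of which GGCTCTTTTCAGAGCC was in 26, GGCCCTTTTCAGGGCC in 7 and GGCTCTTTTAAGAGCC in 6. The other 23 held no match, which does not show that the gene lacks a stem-loop. A transcript annotated only up to a point before it gives no match either.

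The depth was 10696040 to 12054782 reads in genes after IL-33 and 15650716 to 16092279 after HDM. The ILC2 marker genes summed to 4336 and 4339 RPKM (reads per kilobase of exon, scaled to the depth of the library) after IL-33 and to 3328 and 3513 after HDM, with none of the 14 listed at 0 in every library. They did not move as one, since 6 were higher in both IL-33 libraries and 6 in both HDM libraries. *Gata3*, which carries the reporter, had 14.9 and 18.9 RPKM after IL-33 and 216 and 195 after HDM, and *Il2ra*, which encodes CD25, had 432 and 376 against 27.6 and 22.0. Markers of other cells also differed between the groups. The macrophage list summed to 178 and 53.8 RPKM after IL-33 and to 1037 and 3259 after HDM, with 5 of 15 genes higher in both HDM libraries, *Lyz2* at the top and *Adgre1* at 9.25 RPKM or less. The dendritic cell list summed to 1282 and 1246 RPKM after IL-33 and to 71.6 and 91.3 after HDM, with *Flt3* and *Clec9a* at 0 in 3 of the 4 libraries each. Most of the IL-33 sum was *H2-Ab1*, at 1063 and 1030 RPKM, and *Ccr7*, at 211 and 208. These genes are not particular to dendritic cells, as the study names *Ccr7* among genes high in IL-33-activated ILC2s. It also cites MHC class II, which *H2-Ab1* belongs to, as expressed by ILC2s. The part of these cells in the values below was not tested, and in bulk RNA fewer cells of a type and less RNA per cell cannot be told apart. The 45S ribosomal RNA gene took 4.95% and 3.45% of the reads in genes after IL-33 and 17.4% and 25.4% after HDM.

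Clustered histone genes made up a small share of the reads in genes that overlapped between groups, at 0.0338% and 0.0299% after IL-33 and 0.0432% and 0.0321% after HDM. The reads in genes include 45S ribosomal RNA, at 4.95% and 3.45% after IL-33 and 17.4% and 25.4% after HDM. Shares without it were not taken, so the overlap holds only with it included. RPKM was also scaled to a depth that includes it. The summed level of the clustered histone genes was 555 ± 60.1 RPKM after IL-33 and 497 ± 95.4 after HDM (SD, n = 2 libraries each). Within that sum the make-up differed. Linker histones supplied 9.70% and 10.6% in the IL-33 libraries and 51.6% and 49.4% in the HDM libraries. The summed linker level was 4.47 times higher after HDM, with 56.3 ± 2.39 RPKM after IL-33 against 252 ± 56.1 (SD, n = 2). The summed core level was 2.04 times higher after IL-33, with 499 ± 57.7 RPKM against 245 ± 39.3. In these sums neither the linker nor the core libraries of the groups overlapped. The exact permutation test of 2 against 2 libraries cannot give a p below 0.333, and no test was made on the sums.

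**Figure D1:**
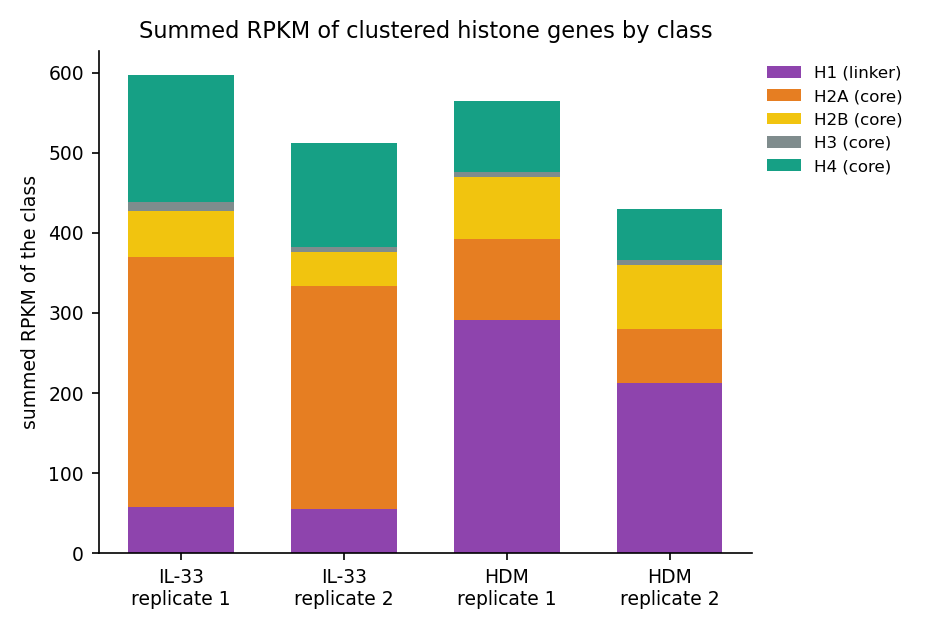
Summed RPKM of the clustered histone genes in each library (vertical axis, from 0), stacked by histone class, with 1 bar per library. The H1 segment reaches 291 and 212 RPKM in the HDM bars and stays at 58.0 and 54.6 in the IL-33 bars, whereas H2A leads the IL-33 bars with 312 and 279.

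The core classes did not move together. H2A summed to 295 ± 23.8 RPKM after IL-33 and 84.5 ± 23.6 after HDM, and H4 to 145 ± 21.0 and 76.1 ± 17.7. H2B lay the other way, with 50.2 ± 10.2 RPKM after IL-33 and 78.9 ± 1.92 after HDM. H3 was the lowest class in every library, at 8.54 ± 2.74 and 5.55 ± 0.0933 RPKM. The summed H3 level stood far below that of H2A and H4 in each library. All 4 histones enter the octamer in equal numbers as proteins, but these sums cover mostly polyadenylated mRNA of clustered genes and do not measure protein.

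Few members carried these sums. *Hist1h1c* supplied 88.7% and 87.9% of the linker RPKM in the HDM libraries. *Hist1h4d* supplied 87.6% and 85.7% of the H4 RPKM in the IL-33 libraries. *Hist1h2ao* supplied 46.9% and 50.8% of H2A after IL-33, whereas *Hist3h2a* led H2A after HDM with 84.8% and 72.9%. *Hist1h2bc* led H2B in all 4 libraries with 44.1% to 64.2%. Without *Hist1h1c* the linker share was 7.54 ± 0.406% after IL-33 and 10.6 ± 0.165% after HDM, so the contrast in the linker share rested on this gene for the greater part. The contrast in the core sum likewise rested on few genes. *Hist1h2ao*, *Hist1h4d* and *Hist1h2ae* had means of 144, 126 and 62.8 RPKM after IL-33, against 7.21, 28.8 and 3.10 after HDM. Of the 17 core genes tested, 6 were higher in both IL-33 libraries and 6 in both HDM libraries. The core sum without the leading genes was not taken. It also adds genes with overlapping spans, such as *Hist1h2ao* and *Hist1h2ap*.

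Of the 69 members, 20 had a mean of at least 2 RPKM and were tested, 3 of H1, 6 of H2A, 4 of H2B, 2 of H3 and 5 of H4. The other 49 did not pass that minimum, and 6 of them had no read in any library. Calls came from limma on log2(RPKM + 1) over all 9523 genes tested and needed both an adjusted p below 0.01 and a log2 fold change beyond 1, which 3.34% of the genes met. After IL-33, 3 members were called higher, *Hist1h2ao*, *Hist1h2ae* and *Hist1h4d*, in a background of 2.80% of all genes tested. After HDM, 1 member was called higher, *Hist1h1c*, in a background of 0.536%. The other 16 were not called. The median log2 fold change (IL-33 over HDM) was −0.13 over the tested members and 0.28 over all genes tested. It was −0.72 for the 3 linker genes, −0.12 for the 17 core genes and 2.65 for the 6 H2A genes.

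Each of the 4 calls ended under 6 alternatives, with a pseudocount of 0.1, with no minimum level, without the intensity trend, with limma-voom on recovered reads and without either IL-33 library. By limma 0 genes were then called in all, with 6 to 24 members at an unadjusted p under 0.05. The folds of the 4 kept their direction and lay between −4.09 and −3.49 for *Hist1h1c*, 3.83 and 4.30 for *Hist1h2ao*, 3.68 and 4.33 for *Hist1h2ae* and 1.62 and 2.24 for *Hist1h4d* on the log2 scale over all alternatives.

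**Figure D2:**
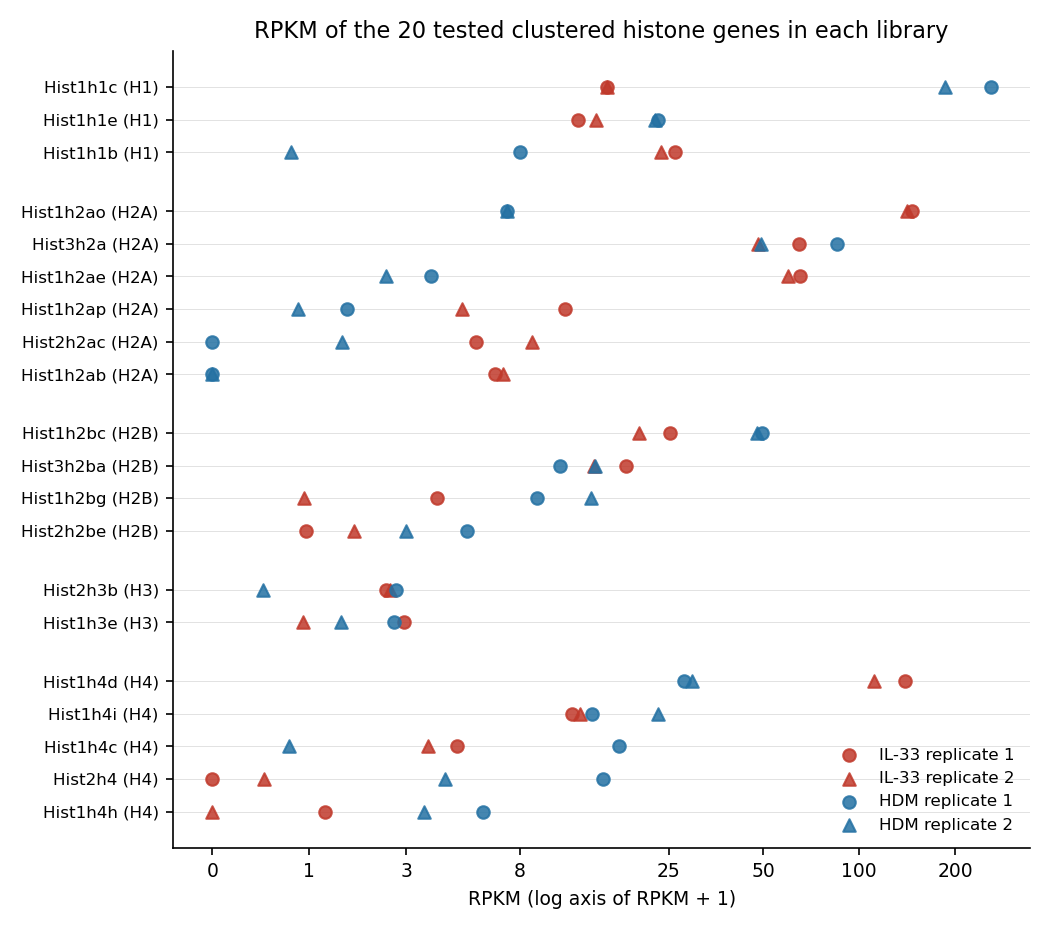
RPKM of the 20 tested members in each library on a log axis of RPKM + 1, grouped by class, with circles for replicate 1 and triangles for replicate 2. Both HDM points of *Hist1h1c* lie at 186 RPKM or above and both IL-33 points at 15.8 or below, and *Hist1h2ao*, *Hist1h2ae* and *Hist1h4d* are separated in the opposite direction.

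Among linker genes, *Hist1h1c* encodes H1.2, one of the H1 subtypes found widely in body cells. Its exon lies at chr13:23738807-23739531 on the plus strand. It had 15.8 and 15.7 RPKM (149 and 133 reads) in the IL-33 libraries and 258 and 186 RPKM (3587 and 2476 reads) in the HDM libraries. The groups did not overlap, and the mean was 14.1 times higher after HDM. The log2 fold change was −3.72 with a standard error of 0.25 (limma, adjusted p = 0.00665). In the order of all genes tested from the most negative fold it was number 13. With 81.2% of its counted 51-nt windows found at no other place among annotated transcripts, most of this gene could be read apart from its relatives.

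The other linker genes differed from *Hist1h1c* and from each other. *Hist1h1e*, which encodes H1.4, had 12.6 and 14.4 RPKM after IL-33 and 23.2 and 22.5 after HDM, without overlap, at a log2 fold change of −0.72 ± 0.29 (SE, limma adjusted p = 0.141). *Hist1h1b*, which encodes H1.5, lay the other way, with 26.2 and 23.7 RPKM after IL-33 and 8.02 and 0.756 after HDM. Its log2 fold change of 2.70 ± 0.79 did not pass (limma adjusted p = 0.0670), and its HDM libraries stood apart by 122 against 11 reads. The log2 fold change of *Hist1h1b* was 3.88 without HDM replicate 1 and 1.52 without HDM replicate 2. *Hist1h1d*, which encodes H1.3, had 2.27, 0.551, 1.68 and 2.25 RPKM in IL-33 replicates 1 and 2 and HDM replicates 1 and 2 and was below the minimum. *Hist1h1a* had 11 and 2 reads after IL-33 and none after HDM, and *Hist1h1t*, the testis linker histone, had no read in any library.

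The stretch before the start is shown for the 3 tested linker genes, since they share a class and went in different directions. Each line is the 90 bases before the RefSeq start (GRCm38.p6) on the gene's strand, with CCAAT and TATAA matches on either strand in capitals:
Hist1h1c: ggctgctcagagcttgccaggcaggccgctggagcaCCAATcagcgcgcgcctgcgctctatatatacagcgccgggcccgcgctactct
Hist1h1e: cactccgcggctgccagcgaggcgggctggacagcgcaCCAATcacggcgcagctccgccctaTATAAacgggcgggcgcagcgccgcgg
Hist1h1b: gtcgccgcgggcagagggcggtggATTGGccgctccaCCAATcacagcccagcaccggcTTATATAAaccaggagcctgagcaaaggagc
They lie at chr13:23738717-23738806 (plus strand), chr13:23622559-23622648 (minus) and chr13:21780626-21780715 (minus). All 3 held CCAAT, and *Hist1h1c* had no TATAA in these letters. In the window from 250 bases before to 50 after the start, CCAAT was found on either strand in 53 of the 62 members with a promoter entry, against 37.4% of all 32851 promoters. By class it was in 6 of 6 H1, 18 of 18 H2A, 16 of 16 H2B and 10 of 10 H3 promoters but in 3 of 12 of H4. TATAA was in 50 of 62 against 24.9%. The octamer ATTTGCAT was in 7 of 18 H2A and 7 of 16 H2B promoters and in 0 of those of H1, H3 and H4, against 1.74% of all promoters. Divergent pairs of H2A and H2B genes share part of these windows, and a match is a description of letters only.

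H2A held the members with the largest rises after IL-33. *Hist1h2ao* had 147 and 141 RPKM (1054 and 912 reads) after IL-33 and 7.20 and 7.23 RPKM (76 and 73 reads) after HDM, a 19.96-fold higher mean. Its log2 fold change was 4.14 with a standard error of 0.24 (limma, adjusted p = 0.00497). *Hist1h2ae* at chr13:23570663-23571220 on the minus strand had 65.6 and 60.0 RPKM (477 and 391 reads) after IL-33 and 3.75 and 2.45 RPKM (40 and 25 reads) after HDM. Its mean was 20.3 times higher, at a log2 fold change of 3.98 ± 0.33 (SE, limma adjusted p = 0.00687). Neither gene overlapped between groups.

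The value of *Hist1h2ao* was uncertain as that of a single gene. The tables list it with 2 copies at chr13:21833024-21833575 on the minus strand. There its span overlaps by 452 nt that of *Hist1h2ap*, which is listed on the plus strand. GENCODE places *Hist1h2ap* at this locus on the minus strand and *Hist1h2ao* elsewhere on the chromosome. In that GENCODE transcript of *Hist1h2ao*, 6.51% of the 51-nt windows occurred at no other place, and 93.5% also occurred in *Hist1h2ap*. The windows of the span counted for *Hist1h2ao* were not taken. *Hist1h2ap*, also listed with 2 copies and with 0% of windows of its own, had 11.4 and 4.93 RPKM after IL-33 and 1.62 and 0.847 after HDM, which did not pass (log2 fold change 1.96 ± 0.57, limma adjusted p = 0.0653). How reads were divided between this pair was not tested.

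*Hist3h2a*, an H2A gene at chr11:58954685-58955192 outside the large cluster, did not follow them. It had 64.9 and 48.2 RPKM after IL-33 and 85.8 and 49.4 after HDM, and the groups overlapped (log2 fold change −0.22 ± 0.34, limma adjusted p = 0.682). With 91.0% of windows of its own, it was among the H2A genes that could be read best apart. *Hist1h2ab* was named after its values were seen. It had 43 and 41 reads after IL-33 (6.54 and 6.96 RPKM) and none in either HDM library, so that its mean was at least 21.2-fold higher when 3 reads per library were taken as the floor (limma adjusted p = 0.0183, not called). Its log2 fold change was 2.95 with all libraries, 2.99 without IL-33 replicate 1 and 2.91 without IL-33 replicate 2. Leaving out either HDM library could not change it, since neither had a read. All H2A genes tested other than *Hist3h2a* had both IL-33 libraries above both HDM libraries, as had 41.7% of all genes tested.

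No H2B member was called by limma, and 2 of the 4 tested had an unadjusted p under 0.05. Over all genes tested, 3499 of 9523 had one. *Hist1h2bc* at chr13:23684199-23692480, the highest of the class, had 25.3 and 20.1 RPKM after IL-33 and 49.8 and 47.9 after HDM, without overlap and 2.15 times higher after HDM on average (log2 fold change −1.08 ± 0.26, limma adjusted p = 0.0406). *Hist1h2bg* had 3.98 and 0.924 RPKM after IL-33 and 9.14 and 13.9 after HDM (−1.99 ± 0.60, limma adjusted p = 0.0715). *Hist2h2be* had 0.946 and 1.76 RPKM against 5.16 and 2.98 (−1.10 ± 0.54, limma adjusted p = 0.201). *Hist3h2ba*, the chromosome 11 neighbour of *Hist3h2a*, overlapped between groups, with 18.1 and 14.3 RPKM after IL-33 and 11.0 and 14.3 after HDM.

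*Hist1h2ae* and *Hist1h2bg* stand head to head on chromosome 13 with overlapping upstream windows, and their libraries separated in opposite directions. *Hist1h2ae* was higher in both IL-33 libraries, whereas *Hist1h2bg* was higher in both HDM libraries but was not called. The pair was chosen after its values were seen.

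H3 members were near the lower limit of measurement. *Hist2h3b* had 2.45 and 2.56 RPKM after IL-33 and 2.71 and 0.436 after HDM, and *Hist1h3e* had 2.94 and 0.910 against 2.67 and 1.51. Both overlapped between groups and neither was called (limma adjusted p = 0.544 and 0.885). *Hist1h3i* had 3 and 2 reads after IL-33 and 0 and 17 after HDM, and *Hist1h3d* had 13 and 1 against 1 and 0. The 12 H3 genes had 68 and 40 reads in all after IL-33 and 51 and 50 after HDM, in libraries of unequal depth. Both IL-33 libraries lay above both HDM libraries for 5 of the 12 and the reverse held for 0, but the 5 were below the minimum and had no test. Among all genes tested, 41.7% had both IL-33 libraries above and 23.5% both HDM libraries. These shares were not taken over genes below the minimum.

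H4 was led by *Hist1h4d* at chr13:23581602-23581969. It had 140 and 111 RPKM (668 and 477 reads) after IL-33 and 27.9 and 29.6 RPKM (196 and 199 reads) after HDM, a 4.36-fold higher mean without overlap. Its log2 fold change was 2.08 with a standard error of 0.23 (limma, adjusted p = 0.00795). Its call also ended with quantile normalization, median-of-ratios scaling, scaling without 45S ribosomal RNA and a minimum of 1 RPKM, with adjusted p from 0.0108 to 0.0147.

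The remaining H4 genes were lower. Of the 13 H4 genes, 3 had both IL-33 libraries above both HDM libraries, *Hist1h4d* and 2 below the minimum, *Hist1h4j* (0.545 and 1.01 RPKM against 0.124 and 0.388) and *Hist1h4b* (0.342 and 0.191 against 0.116 and 0), which were named after their values were seen. Both HDM libraries were higher for 4 H4 genes. Over all genes tested the shares were 41.7% for IL-33 above and 23.5% for HDM above. *Hist1h4i* had 12.0 and 12.8 RPKM after IL-33 and 14.0 and 23.1 after HDM (limma adjusted p = 0.361). *Hist2h4* at chr3:96262934-96263317 had 0 and 2 reads after IL-33 and 112 and 30 after HDM, or 0 and 0.447 RPKM against 15.3 and 4.28, which did not pass (log2 fold change −2.95 ± 0.70, limma adjusted p = 0.0405). The log2 fold change of *Hist2h4* was −2.13 without HDM replicate 1 and −3.76 without HDM replicate 2. *Hist1h4c* had 4.72 and 3.66 RPKM after IL-33 and 17.2 and 0.731 after HDM, so the HDM libraries enclosed those of IL-33. Its log2 fold change was −0.12 ± 1.11 with all libraries, 1.58 without HDM replicate 1 and −1.82 without HDM replicate 2. *Hist1h4d* supplied 31.5% and 46.6% of the H4 RPKM in the HDM libraries, where 10 and 9 H4 genes had a read against 8 and 7 in the IL-33 libraries. The H4 genes are known to encode the same protein.

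**Figure D3:**
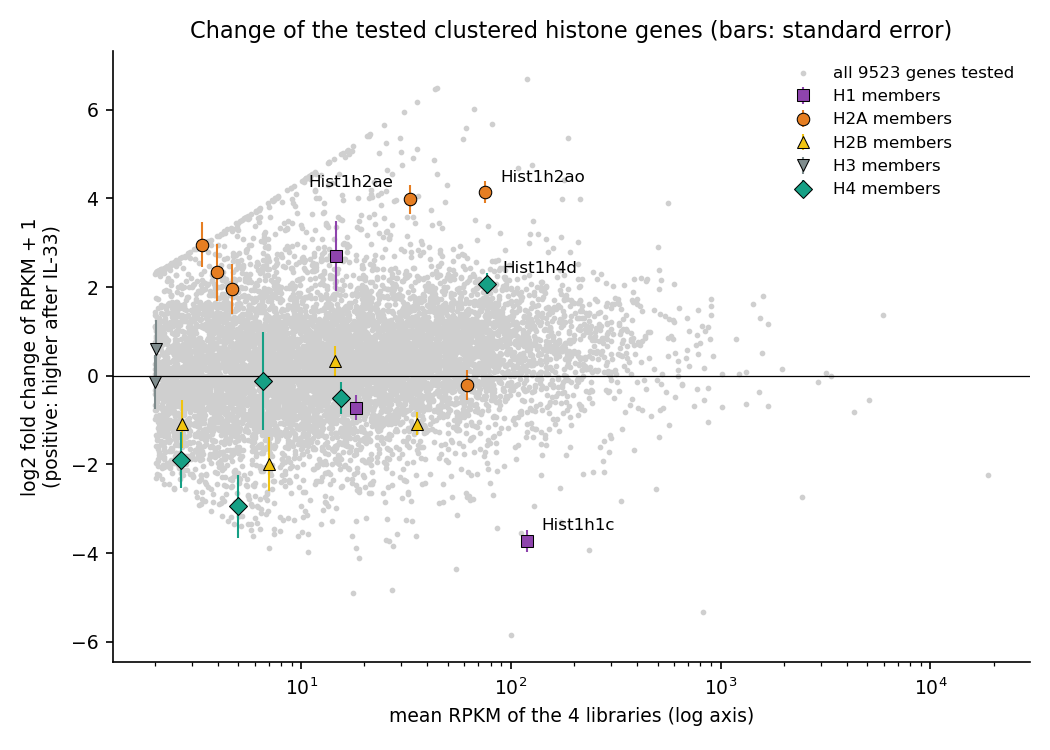
Log2 fold change of RPKM + 1 (vertical axis, positive for higher after IL-33, bars for the standard error) against the mean RPKM of the 4 libraries (log axis), for the tested members by class and for all 9523 genes tested in grey. *Hist1h2ao* and *Hist1h2ae* lie near 4, *Hist1h4d* at 2.08 and *Hist1h1c* at −3.72, with members of H2B, H3 and H4 spread around and below 0.

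Counting every member, whatever its level, both IL-33 libraries lay above both HDM libraries for 28 of 69 members, the reverse held for 10, and 31 overlapped. Among the 20 tested these counts were 7, 8 and 5, in a background of 41.7% of all genes tested for IL-33 above and 23.5% for HDM above. For the 69 members no such share over all 24537 genes was taken, so 28 against 10 is a description only. Reads after IL-33 but none in both HDM libraries were found for 15 members, and 7 had the reverse. A read was found for 53 and 51 members in the IL-33 libraries and for 38 and 38 in the HDM libraries. Over all 24537 genes, a read was found for 13102 and 12895 in the IL-33 libraries. In the HDM libraries, which were deeper, it was found for 10675 and 12134. The part of this difference in the member counts was not tested. Most untested members rested on few reads, as 24 of the 69 members had 10 reads or more in at least 2 libraries.

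The annotation extends past the stem-loop for many members, which bears on what poly(A) priming can capture. Of the 46 transcripts with a stem-loop, 26 run on for more than 50 nt, 12 of the 16 among tested members and 14 of the 30 among those below the minimum. The annotated length past the stem-loop was 840 nt for *Hist1h1c*, 1153 nt for *Hist1h1e*, 1257 nt for *Hist2h4*, 770 nt for *Hist1h4d* and 1643 nt for *Hist3h2a*. It was 151 nt for *Hist1h2ae* and 31 nt for *Hist1h2ao*, whose GENCODE transcript lies outside the span counted for it. The transcripts of both *Hist1h2ao* and *Hist1h2ap* hold a run of 12 A bases just before the stem-loop.

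Among tested members with a stem-loop, the median length past it was 585 nt for the 6 that were higher in both HDM libraries (46 to 1257 nt), 44.0 nt for the 6 that were higher in both IL-33 libraries (3 to 770 nt) and 412 nt for the 4 that overlapped. These ranges overlap, the members are few, and no test was made. The tested *Hist1h1b*, *Hist1h2bc*, *Hist2h2be* and *Hist2h3b* held no match and are not in these medians. The exon that was counted ended 3 to 8 nt past the stem-loop in 43 of the 46, so reads from the annotated stretch beyond it did not enter the values.

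**Figure D4:**
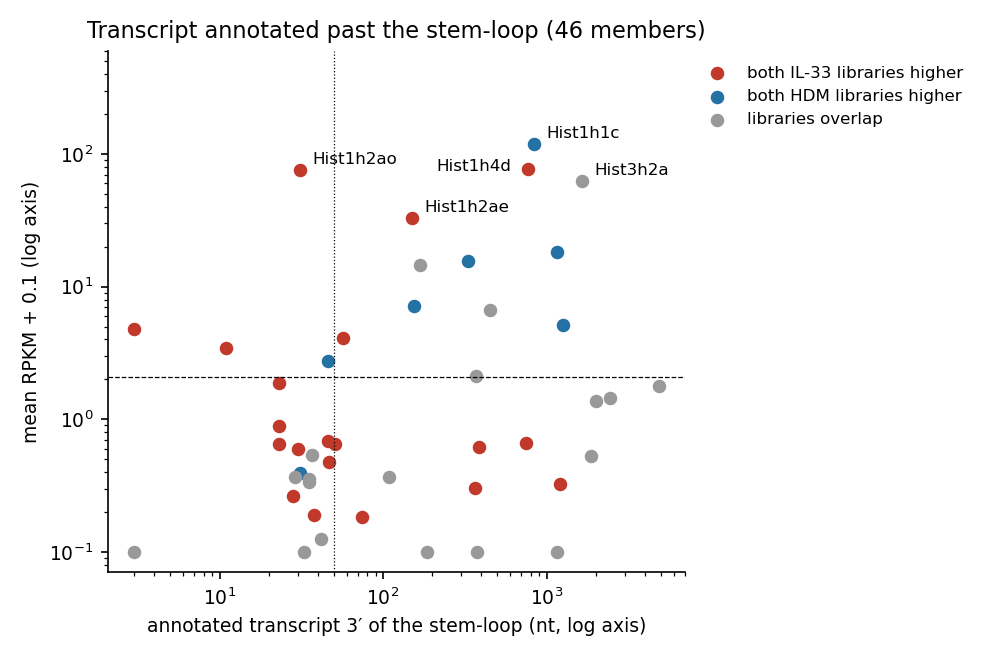
Mean RPKM + 0.1 over the 4 libraries against the annotated transcript length past the stem-loop for the 46 members that hold one, both on log axes, coloured by which libraries were higher, with dotted and dashed lines at 50 nt and at 2 RPKM. *Hist1h1c*, *Hist1h4d* and *Hist3h2a* lie at 770 nt or more and *Hist1h2ao* at 31 nt, and points below the dashed line occur on both sides of 50 nt.

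Members also differed in how well a 51-nt read could be placed. Over the 69 members a median of 41.2% of the counted 51-nt windows occurred at no other place among annotated transcripts, with 5 members at 0% and 6 at 100%. The median was 90.6% for H1, 27.8% for H2A, 46.0% for H2B, 27.6% for H3 and 49.2% for H4. The tested members stood at 52.8% and the others at 34.0%. Among called members the share was 81.2% for *Hist1h1c*, 66.0% for *Hist1h4d*, 44.9% for *Hist1h2ae* and 6.51% for *Hist1h2ao*. For *Hist1h2ao*, *Hist2h2aa2* and *Hist1h2br* GENCODE gives a place outside the counted span. Their shares are of the whole GENCODE transcript and do not describe the counted sequence. The file headers name the alignments as unique, and the part of this share in the level of H1 against core genes was not tested.

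**Figure D5:**
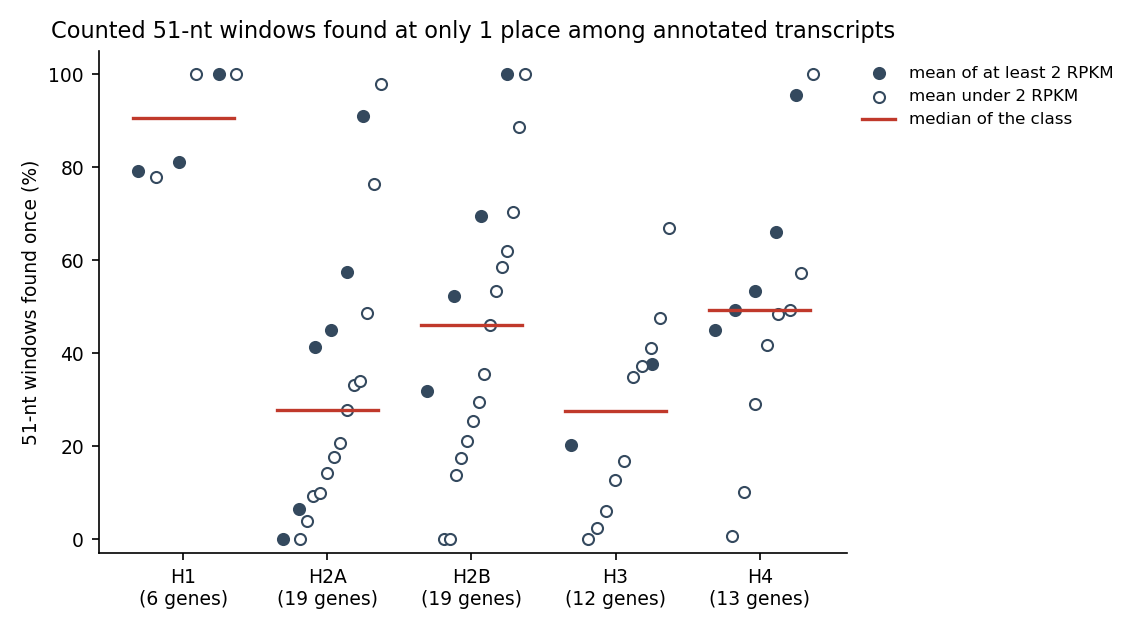
Share of each member's counted 51-nt windows that occur at only 1 place among annotated transcripts (vertical axis, %), by class, filled for members with a mean of at least 2 RPKM and open for the others, with the class median as a line. H1 genes all lie at 78.0% or above, whereas 44 of the 69 members lie under 50%. For *Hist1h2ao*, *Hist2h2aa2* and *Hist1h2br* the whole GENCODE transcript, outside the counted span, was used.

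Histone genes outside the clusters, which make polyadenylated mRNA, were also measured, along with lists of related genes. The counts of each list stand against 2.80% of all genes tested called higher after IL-33 and 0.536% called higher after HDM. Counts at an unadjusted p under 0.05 stand against 3499 of the 9523 genes tested, in either direction. Of 17 listed replication-independent variants, 9 were tested, and limma called 1 higher after IL-33 and 0 higher after HDM. At an unadjusted p under 0.05, 6 were higher after IL-33 and 1 after HDM, with a median log2 fold change of 1.06. The call was *H2afz*, which encodes the H2A.Z variant, with 358 and 357 RPKM after IL-33 and 63.2 and 60.1 after HDM (2.52 ± 0.17, limma adjusted p = 0.00665). *H1f0*, which encodes the linker variant H1.0 and was named after its values were seen, went the opposite way to *Hist1h1c*. It had 144 and 185 RPKM after IL-33 and 53.7 and 35.5 after HDM, without overlap and without a call (1.88 ± 0.28, limma adjusted p = 0.0132).

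Of 34 tested genes for histone mRNA transcription and 3′ processing, limma called 1 higher after IL-33 and 0 higher after HDM, a share close to that over all genes. At an unadjusted p under 0.05, 10 were higher after IL-33 and 2 after HDM (median log2 fold change 0.52). In either direction, 3499 of all 9523 genes tested lay under that value. The call was *Eri1*, an exonuclease that binds the stem-loop, with 32.1 and 31.9 RPKM after IL-33 and 4.82 and 4.04 after HDM (2.61 ± 0.32, limma adjusted p = 0.00987). *Slbp*, named after its values were seen, had 232 and 214 RPKM after IL-33 and 99.0 and 58.1 after HDM and did not pass (1.54 ± 0.29, limma adjusted p = 0.0223). Of 30 chaperone and deposition genes, 18 were higher after IL-33 and 1 after HDM at an unadjusted p under 0.05 (median 1.08). By limma 2 were called higher after IL-33 and 0 after HDM, *Chaf1a*, a subunit of the chromatin assembly factor CAF-1, and *Rbbp7*, a histone-binding protein of several chromatin complexes. *Chaf1a* had 26.0 and 27.0 RPKM against 0 and 0.958, and *Rbbp7* had 289 and 259 against 87.0 and 78.1.

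S phase genes were set beside the histones because most clustered histone genes are S phase genes. Of 16 tested, limma called 8 higher after IL-33 and 0 after HDM, and at an unadjusted p under 0.05 the counts were 16 and 0. All 16 had both IL-33 libraries above both HDM libraries, and the median log2 fold change was 3.02. *Rrm2*, a subunit of ribonucleotide reductase, had 245 and 241 RPKM after IL-33 and 6.65 and 9.70 after HDM, and *Cdc6*, a replication licensing factor, had 17.9 and 24.3 against 0 and 0. Among the 17 core histone genes tested, 6 had both IL-33 libraries above, 6 had both HDM libraries above and 5 overlapped. Over all genes tested, 41.7% had both IL-33 libraries above and 23.5% both HDM libraries above. Of 15 tested enzymes that modify H2A.X, H2B or H1, 5 were higher after IL-33 and 1 after HDM at an unadjusted p under 0.05 (median 0.74). In either direction, 3499 of all 9523 genes tested lay under that value. By limma 1 was called higher after IL-33 and 0 after HDM, *Aurkb*, a mitotic kinase, with 51.6 and 72.3 RPKM against 0 and 0.028.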

How the data were processed

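The 4 libraries hold RNA of BAL fluid ILC2s. The authors used Smart-seq2 with single reads of 51 bp and the mm10 genome, with HISAT2 as aligner (2.0.4 per the submitters' processing notes), and the deposited values are RPKM per gene. Per the file headers, HOMER counted exons of 1 transcript per gene in tag directories named unique, and scaled counts to 10000000 reads. Smart-seq2 does not keep strand. RPKM times exon length gave steps of 1 read (99.6% to 99.9% of values whole within 0.1 of a read).

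The minimum for a test was a mean of 2 RPKM, and values were tested on log2(RPKM + 1) with limma (version 3.58.1 in R 4.3.3, intensity trend, two-sided, Benjamini-Hochberg adjustment). Fold changes on that scale understate the change of low genes. A floor is 3 reads per library, for counting error only. The test was checked on simulated data. Members named were all called ones and the 4 highest means per class, and from other lists up to 4 called genes. Members and lists were chosen with earlier results of these data known. Stem-loops, 51-nt windows and promoters were read from GENCODE (68 members matched by RefSeq accession) and RefSeq GRCm38.p6 (62 members).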

Additional observations from a re-analysis of the deposited data

How the results depend on the processing

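Main calls were 267 genes higher after IL-33 and 51 higher after chronic HDM, 3 and 1 of them clustered histone genes. By limma 0 genes and 0 members were called in either direction with a pseudocount of 0.1, no minimum, no intensity trend or limma-voom, although 3277, 4013, 3327 and 3052 genes, and 12, 24, 13 and 7 members, had an unadjusted p under 0.05. All counts moved between 0 and 1872 genes higher after IL-33, 0 and 598 higher after HDM, and 0 to 6 and 0 to 3 members when 1 library was left out, with the lone library assumed to vary like the other group. Without IL-33 replicate 1 or 2 there were 0 calls and 1352 and 1443 genes, 8 and 6 of them members, at an unadjusted p under 0.05. Calls were 150 and 25 at a minimum of 1 RPKM, 502 and 107 at 5 RPKM, and 1311 and 455 at an adjusted p under 0.05 (3 members higher after HDM). Scaling moved the split, to 148 and 119 with quantiles, 85 and 40 with median of ratios, and 75 and 39 without 45S ribosomal RNA, an alternative chosen after seeing the data. Over all genes the median log2 fold change became −0.0029, 0.073 and 0.024 in place of 0.28. With the replicate number as a block there were 987 and 267 calls, but the numbers do not pair the libraries (correlation of same-numbered deviations −0.04), and *Hist1h1b* was called. The linker share after IL-33 and HDM was 14.9% and 57.6% from reads, 7.54% and 10.6% without *Hist1h1c*, and 13.1% and 53.7% without *Hist1h4d*.

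Of 268 values of 17 named members under alternatives, 226 kept direction and call, 28 lost the call, 6 gained it and 8 changed sign. The sign changed for *Hist1h4c* with a pseudocount of 0.1 (0.17) and voom (0.064). Leaving out 1 library gave log2 fold changes of both signs for *Hist1h3e* (−0.67 to 0.38), *Hist1h4c* (−1.82 to 1.58), *Hist2h3b* (−0.083 to 1.29) and *Hist3h2a* (−0.61 to 0.18). The cause was not tested. Of the 69 members, 49 lay below the minimum.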
